A study of Mus musculus with 6 samples.

Results

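Tubulin isotype genes encode the alternative forms of the alpha, beta and gamma tubulin proteins. The set comprised 4 alpha genes (Tuba1a, Tuba1b, Tuba1c and Tuba4a), 5 beta genes (Tubb2a, Tubb2b, Tubb4b, Tubb5 and Tubb6) and 1 gamma gene (Tubg1). Members were taken by symbol, and all 10 were found among the 11452 genes of the table and the 11269 genes tested. They were chosen from measured values of these same libraries: the level of Tubb5 had been seen to be lower in the libraries numbered 4 than in those numbered 1 and 2. That difference is therefore given as a description, with no test. The comparison of knockout with wild type was tested.

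RNA was sequenced from pools of 4T1, a tumour-derived mouse mammary gland cell line, labelled wild type (WT) or knockout (KO) for Myosin 1e, the class I myosin encoded by Myo1e. Each genotype had 3 libraries from 3 pools, with no treatment or time course named in the labels. Neither the method of knockout nor the origin of the pools is stated in the sources used here. The series calls the samples biological replicates without naming separate cultures, so p-values measure the spread between these pools, which may be partly technical. Libraries are named by genotype and table column number, KO 1, KO 2, KO 4, WT 1, WT 2 and WT 4. The sources used here do not say what the number 4 stands for.

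Alpha and beta tubulin form the dimer from which microtubules, the tracks of intracellular transport and the fibres of the mitotic spindle, are assembled. Gamma tubulin sits in ring complexes that start new microtubules, and isotypes within a family differ mainly in their acidic tails and in the tissues that make them. Cells also adjust tubulin mRNA to the amount of unassembled tubulin. The factor TTC5 recognises the first residues of the nascent chain, and with SCAPER and the CCR4-NOT deadenylase complex it leads to decay of the mRNA being translated.

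The coding starts are shown because that recognition reads them. They come from the GENCODE transcripts of build GRCm38, with 24 bases from the start codon and the first 4 codons in capitals. The alpha genes read:
Tuba1a: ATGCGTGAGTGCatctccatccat
Tuba1b: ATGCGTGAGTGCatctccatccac
Tuba1c: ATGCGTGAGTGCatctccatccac
Tuba4a: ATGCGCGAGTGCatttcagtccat
The beta genes for which the start is shown read:
Tubb2a: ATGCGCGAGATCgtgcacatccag
Tubb2b: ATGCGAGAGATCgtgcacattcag
Tubb4b: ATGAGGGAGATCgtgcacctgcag
Tubb5: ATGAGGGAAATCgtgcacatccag
Both gamma genes begin otherwise:
Tubg1: ATGCCGAGAGAAatcatcacccta
Tubg2: ATGCCCCGGGAGatcatcaccctg

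The first 4 codons encode methionine, arginine, glutamate and cysteine in all 4 alpha members. They encode methionine, arginine, glutamate and isoleucine in all 5 beta members, Tubb6 included. Tubg1 and its close relative Tubg2 have neither start.

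Coding sequences within the families were alike, which bears on how reads can be assigned. Identity ran from 84.8% to 98.3% among alpha members, with Tuba1a and Tuba1b the closest pair. It ran from 80.2% to 96.5% among beta members, with Tubb2a and Tubb2b the closest, and from 52.4% to 55.4% between alpha and beta. Of all stretches of 50 bases in the transcript, 83.1% in Tuba1b, 75.5% in Tuba1a and 60.99% in Tuba1c also occurred in another gene. The share was 55.5% in Tubb4b, mostly with its pseudogenes, and 49.6% in Tubb2a and 39.3% in Tubb2b, mostly with each other. Tubg1 shared 14.1%, mainly with Tubg2. Tuba4a shared 48.8%, nearly all through its exon overlap with Stk16 on the opposite strand. Exons of Tuba1a and Tuba1b overlap those of Gm49450, a protein coding gene on the same strand that has no row in the table. By contrast Tubb5 shared 0.115% and Tubb6 0%. How the counting treated strand and reads with several matches is not stated in the sources used here. The levels of Tubb5 and Tubb6 are therefore the best resolved, and those of the other members are uncertain in how they divide.

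On GRCm38, the Tuba1b gene spans chromosome 15 from 98931425 to 98934565 and Tuba1a from 98949837 to 98953703, both on the minus strand. Tuba1c lies nearby on the plus strand, from 99029891 to 99038110. Tubb5 spans chromosome 17 from 35833921 to 35838306 on the minus strand, and Tubb4b spans chromosome 2 from 25222160 to 25224702 on the minus strand. Tubb2a (34074274 to 34078007) and Tubb2b (34126748 to 34130466) are neighbours on chromosome 13. Tuba4a is on chromosome 1, Tubg1 on chromosome 11 and Tubb6 on chromosome 18. All 10 are annotated as protein coding, and the values below are sums over whole genes, not over single exons.

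Both libraries numbered 4 stood apart over all genes and not just in the tubulins. In them 37% of all genes tested lay below the other 4 libraries and 35.8% above, without overlap, and the median difference over all genes was 0.00 on the log2 scale. Depth did not separate them, with 17772003 to 19988206 recovered reads per library. Mitochondrially encoded genes held 0.343% of reads in KO 4 and 0.309% in WT 4, below the 0.379% to 0.493% of the others. All 11 epithelial markers, Epcam and Krt8 among them, had a row in the table, with a summed level of 4678 to 5412 CPM (reads scaled to a fixed effective library size) in the libraries numbered 1 and 2 and 3969 to 4259 CPM in those numbered 4. None of 8 endothelial markers had a row. Of 10 markers each, fibroblast genes had 2 (Pdgfra and Postn, 29.9 to 76.8 CPM in numbers 1 and 2, 51.5 to 71.0 in 4) and leukocyte genes 2 (Cd68 and Cd74, 11.2 to 34.4 CPM against 59.7 to 71.5). Neural genes had 1 (Map2, 21.5 to 25.5 CPM against 34.99 to 40.3), and the defining markers Col1a1, Ptprc and Tubb3 had none. The part of these markers in the differences below was not tested.

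Tubb5 was the most abundant tubulin transcript in every library. Levels between genes are compared per length, as CPM per kilobase of annotated exon (RPKM). Tubb5, a beta isotype made in most tissues, had 822, 840 and 346 RPKM in KO (numbers 1, 2 and 4) and 867, 850 and 359 in WT. Tubb4b, the other broadly expressed beta isotype, had 271, 267 and 82.4 RPKM in KO 1, 2 and 4, and 257, 273 and 94.96 in WT 1, 2 and 4. On this exon length Tubb5 exceeded Tubb4b by more than 3-fold in each library, and in both genes the libraries numbered 4 lay far below the rest.

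Tuba1b, the leading alpha isotype, had 189, 186 and 57.0 RPKM in KO 1, 2 and 4, and 204, 210 and 63.0 in WT 1, 2 and 4. Tubb6, a beta isotype associated with less stable microtubules, had 183, 168 and 42.8 RPKM in KO and 180, 175 and 42.7 in WT. On these exon lengths (1875 bases for Tuba1b, 2437 for Tubb6) Tuba1b lay above Tubb6 in each library, by little in KO 1. That order depends on the length, since their longest transcripts are nearly equal, at 1743 and 1758 bases. In CPM, before division by length, Tubb6 was higher than Tuba1b in the libraries numbered 1 and 2 (447 against 355 in KO 1). It was lower in those numbered 4 (104 against 107 in KO 4). Tuba1a, best known from the developing brain, ran from 107 to 131 RPKM in the libraries numbered 1 and 2, and Tuba1c from 108 to 123. These last ranges overlapped, so Tuba1a and Tuba1c could not be ordered.

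Tuba4a, an alpha isotype made without the usual terminal tyrosine, ran from 64.5 to 73.2 RPKM in the libraries numbered 1 and 2, above the 37.0 to 39.2 of Tubg1. In the libraries numbered 4 that gap was absent: Tuba4a had 25.1 in KO 4 and 26.3 in WT 4, and Tubg1 25.5 and 23.7. Tubb2a and Tubb2b, beta isotypes abundant in brain, were the lowest members. In numbers 1 and 2, Tubb2a had 26.7 to 31.7 RPKM and Tubb2b 5.62 to 7.56. Even Tubb2b rested on 129 to 335 reads per library, far over the limit that a count of 0 allows (3 reads, or 0.144 to 0.173 CPM).

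**Figure D1:**
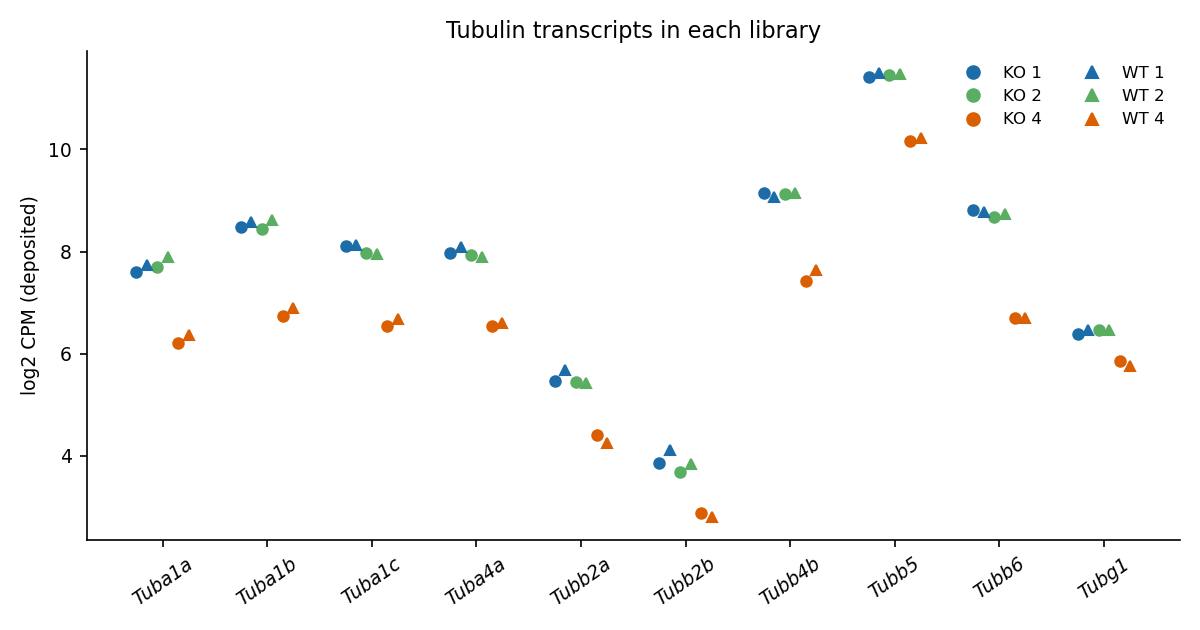
Deposited log2 CPM (y axis) of each tubulin isotype gene (x axis) in each of the 6 libraries, with circles for KO, triangles for WT and colours for the column number, and 1 symbol per library. The orange symbols of KO 4 and WT 4 lie below the other 4 for all 10 genes, from a mean difference of -2.04 for Tubb6 to -0.64 for Tubg1, while KO and WT symbols of the same number lie close together.

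Within the alpha family, Tuba1b held the largest share per length, 38.0% ± 2.56 (SD, n = 6 libraries). Tuba1a held 24.1% ± 1.45 and Tuba1c 23.8% ± 1.602, which did not differ beyond their spread. Tuba4a held 14.1% ± 0.899. Because the Tuba1 genes share most of their sequence, the division among them is less certain than their sum.

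Within the beta family, Tubb5 held 66.1% ± 3.53 and Tubb4b 19.4% ± 1.47 (SD, n = 6). Tubb6 held 11.8% ± 2.50, Tubb2a 2.25% ± 0.259 and Tubb2b 0.530% ± 0.0861. No neighbours in this order overlapped over the 6 libraries. The widest counting interval of a share of reads, before division by length, was ±1.03 percentage points (Wilson, 95%), and it covers counting error only.

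**Figure D2:**
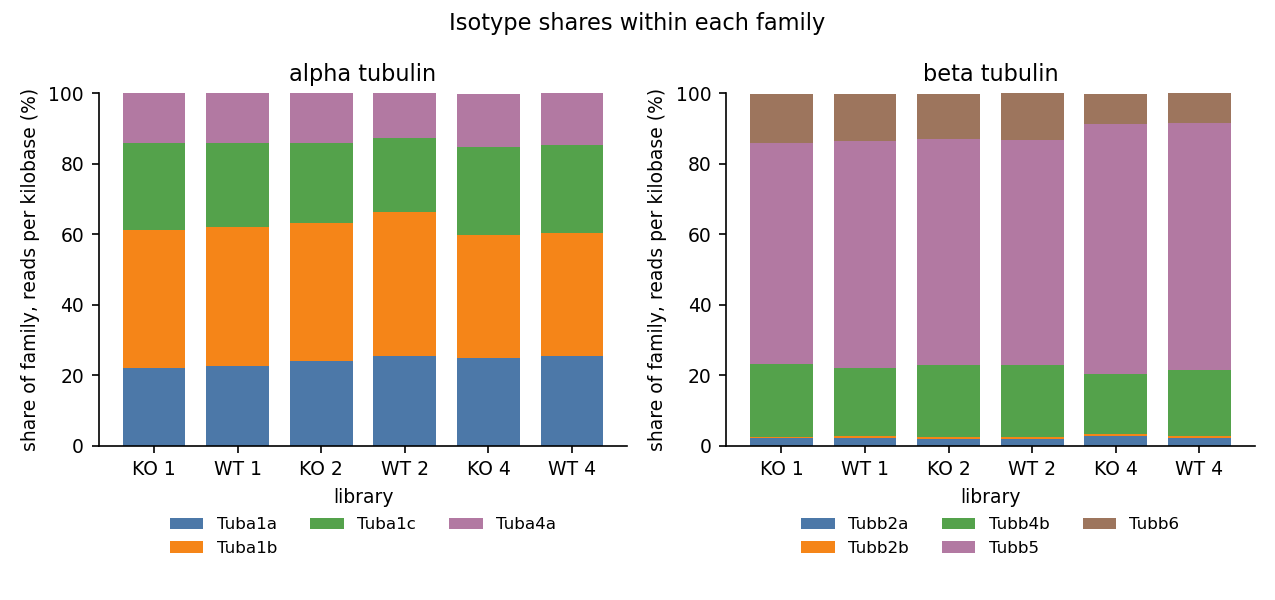
Share of each isotype within the alpha (left) and beta (right) tubulin family in percent of reads per kilobase (y axis) in the 6 libraries (x axis), stacked to the full family. Tubb5 takes 62.8% to 64.6% of beta tubulin in the libraries numbered 1 and 2 and 70.2% to 71.0% in those numbered 4, where the Tubb6 band is thinner.

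The isotype make-up of the libraries numbered 4 differed from that of the others. The Tubb5 share was 62.8%, 64.2% and 71.0% in KO (numbers 1, 2 and 4) and 64.6%, 63.9% and 70.2% in WT. The Tubb6 share was 14%, 12.9% and 8.78% in KO and 13.4%, 13.1% and 8.35% in WT. So Tubb5, although its own level was lower in the libraries numbered 4, made up 6.73 percentage points more of beta tubulin there, while the share of Tubb6 differed by -4.78 points. In the alpha family, the Tuba1b share was 34.7% and 34.98% in KO 4 and WT 4, against 39.0% to 40.9% in the others. Tuba1a, Tuba1c and Tuba4a had shares higher by 1.62, 1.85 and 1.28 points on average, and their ranges in numbers 1 and 2 came close to or reached those in number 4.

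Each of the 10 members was lower in both libraries numbered 4 than in any other library, against the 37% of all genes given above, and this is the contrast the members were chosen on. The size of the difference varied by isotype. It exceeded 1 log2 unit for 9 of the 10, whereas 4.89% of all genes tested were lower by that much. The median over members was -1.41, beside 0.00 over all genes. Libraries are bulk samples, in which fewer cells with a transcript and less of it per cell cannot be told apart.

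The steepest difference was that of Tubb6. Its log2 CPM was 8.80, 8.68 and 6.71 in KO 1, 2 and 4, and 8.78, 8.73 and 6.70 in WT 1, 2 and 4. KO 4 and WT 4 were nearly equal and lay 1.98 below the lowest of the others. The mean difference was -2.04, or 24.2% of the level in numbers 1 and 2, at percentile 0.506 of all genes tested.

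Tuba1b followed, with log2 CPM of 8.47, 8.45 and 6.74 in KO and 8.58, 8.62 and 6.89 in WT. Its level in number 4 was lower by nearly the same amount in KO (-1.72) as in WT (-1.71). For Tubb4b, log2 CPM was 9.14, 9.12 and 7.43 in KO and 9.07, 9.15 and 7.63 in WT. The gap was wider in KO (-1.71) than in WT (-1.48), a difference not tested.

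Tuba1a, Tuba1c and Tuba4a formed a close group. Their mean differences were -1.43, -1.42 and -1.40, and their levels in number 4 were 37.0% to 37.9% of those in numbers 1 and 2. Of these 3 genes, Tuba4a lies on another chromosome and shares its bases mainly with Stk16. Tuba1a and Tuba1c both lie on chromosome 15, and 46.9% of the 50-base stretches of Tuba1a also occur in Tuba1c. The part of shared reads in the likeness of their differences was not tested.

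Tubb5 had log2 CPM of 11.42, 11.45 and 10.17 in KO and 11.49, 11.47 and 10.22 in WT. The 4 libraries numbered 1 and 2 lay within 0.08 of each other, and WT 4 lay 1.19 below the lowest of them. Its mean difference, -1.26, was thus smaller than that of all 4 alpha genes and of Tubb4b and Tubb6. In reads, Tubb5 had 48333 to 55733 in numbers 1 and 2, and 23990 and 22377 in KO 4 and WT 4.

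Tubb2a and Tubb2b had the smallest differences of the beta genes, -1.17 and -1.03. Tubb2a had log2 CPM of 5.46, 5.44 and 4.41 in KO and 5.68, 5.43 and 4.25 in WT. Tubb2b had 3.86, 3.69 and 2.89 in KO and 4.12, 3.83 and 2.80 in WT. In both genes KO 4 and WT 4 were the lowest libraries, and Tubb2b spread over 0.43 within numbers 1 and 2.

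Tubg1, the gamma tubulin that nucleates microtubules, had the smallest difference of the members. Its log2 CPM was 6.39, 6.47 and 5.86 in KO and 6.46, 6.46 and 5.75 in WT. The mean difference of -0.64 stood at percentile 12.5 of all genes tested.

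**Figure D3:**
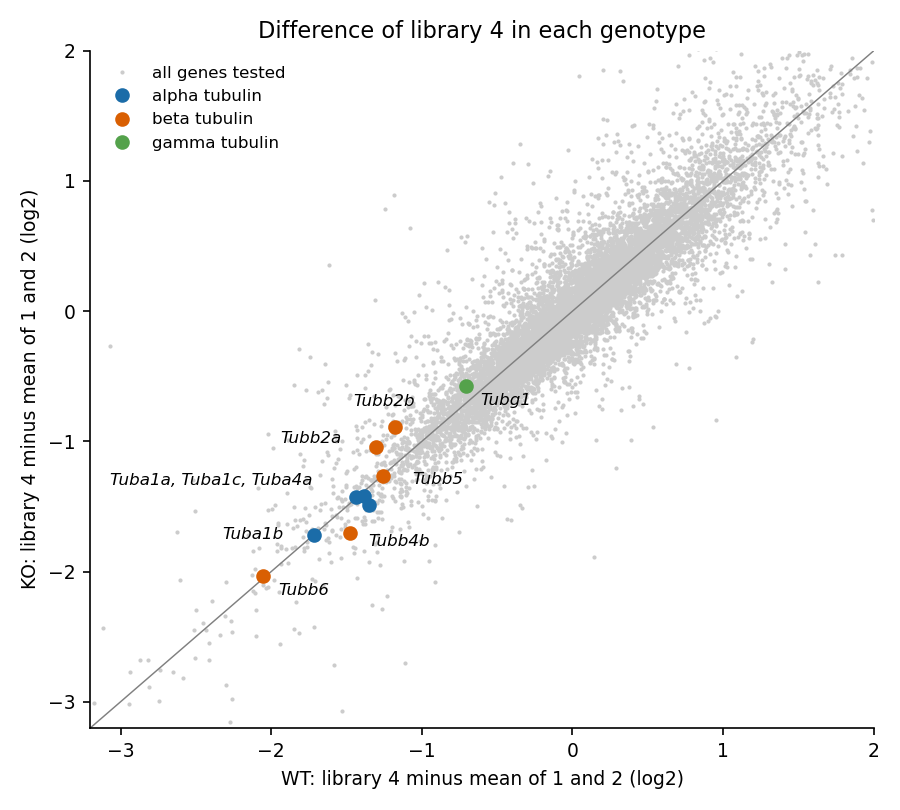
Difference of library 4 from the mean of libraries 1 and 2 in log2 units, in WT (x axis) and KO (y axis), for 11095 of the 11269 genes tested (grey; 174 lie outside the axes) and the tubulin members in colour, with the diagonal marking equal differences. All 10 members lie at the lower left near the diagonal, from Tubb6 at -2.05 and -2.04 to Tubg1 at -0.71 and -0.58.

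Summed over isotypes, alpha tubulin had 476 to 517 RPKM in the libraries numbered 1 and 2, and 164 and 180 in KO 4 and WT 4. Beta tubulin had 1308 to 1343 RPKM and then 488 and 512. The ratio of the first level to the second was 2.89 for alpha and 2.65 for beta. The beta to alpha ratio per length was accordingly 2.59 to 2.75 in numbers 1 and 2 and 2.97 and 2.84 in KO 4 and WT 4. All 10 members together held 0.482% to 0.506% of reads in the first 4 libraries and 0.200% and 0.206% in the last 2.

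Of 10 other tubulin genes, 4 had a row in the table, and they differed among themselves in direction. Tubg2, the second gamma gene, had log2 CPM of 2.16, 2.17 and 2.96 in KO and 2.07, 1.95 and 2.80 in WT. Tubb4a, a beta gene best known from myelinating glia, rested on 16, 19 and 45 reads in KO and 26, 21 and 36 in WT. These genes were higher in both libraries numbered 4 than in any other, by 0.79 for Tubg2 and 0.88 for Tubb4a, the latter on few reads. Tubb4a carries the beta start, as its coding start shows:
Tubb4a: ATGCGGGAAATCgtgcacctgcaa

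The other 2 encode tubulins of the centriole. Tube1 (epsilon) differed by -0.31 with overlap. Tubd1 (delta), which falls outside the rule for named genes and was chosen after its values were seen, had 2.72, 2.56 and 2.08 in KO and 2.71, 2.68 and 2.11 in WT, a difference of -0.57 without overlap.

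The wider tubulin pathway was described with lists chosen, like the members, with earlier results of these data known. Over all genes tested, 37% were lower in both libraries numbered 4 without overlap and 35.8% were higher. The 8 subunits of TRiC, the chaperonin that folds actin and tubulin, had a median difference of -0.51, and 7 of 8 were lower without overlap. Of 13 tubulin cofactors and prefoldin subunits, which bring new chains to TRiC and pair alpha with beta, 7 were lower and 2 higher, with a median of -0.29. Among 18 genes of the gamma tubulin ring and augmin complexes, 14 were lower and 3 higher (median -0.41). Among 16 regulators of spindle microtubules, 14 were lower and 1 was higher (median -0.46). All of these medians were closer to 0 than those of the alpha members (-1.43) and beta members (-1.26).

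Beside the 37% lower and 35.8% higher over all genes tested, other lists showed no clear direction. Of the 27 microtubule associated proteins tested, 11 were lower and 8 higher in the libraries numbered 4 (median 0.02). Of 16 tubulin modifying enzymes, 4 were lower and 6 higher (median 0.11). The 9 genes of tubulin mRNA autoregulation had a median of 0.06, with 4 lower and 4 higher. In that list, Ttc5, the reader of the nascent start, had 4.16, 4.07 and 4.52 in KO and 4.14, 4.05 and 4.63 in WT. Scaper, its partner, had 4.21, 4.19 and 5.42 in KO and 4.32, 4.03 and 5.63 in WT. Both were higher in each library numbered 4, by 0.47 and 1.33, while Cnot11, the CCR4-NOT subunit that SCAPER contacts, differed by 0.07. Ttc5 stood at percentile 79.0 of all genes tested and Scaper at 96.7. The 4 lower genes also belong to CCR4-NOT: Cnot10 (-0.34), Cnot3 (-0.27), Cnot7 (-0.26) and Cnot8 (-0.24). Ttc5, Scaper and Cnot11 were chosen after their values were seen. The part of autoregulation in the tubulin levels was not tested.

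Proliferation markers were low in the same libraries as the tubulins. All 14 were lower in both libraries numbered 4 than in any other, against 37% of all genes tested, with a median difference of -1.15. By more than 1 log2 unit, 9 of 14 were lower, against 4.89% of all genes tested. Mki67, which coats mitotic chromosomes, had log2 CPM of 9.57, 9.69 and 8.78 in KO and 9.47, 9.48 and 8.79 in WT. Cdk1, the mitotic kinase, had 8.42, 8.38 and 7.53 in KO and 8.49, 8.37 and 7.64 in WT. Mcm4, a subunit of the replicative helicase, had 8.23, 8.37 and 6.64 in KO and 8.24, 8.22 and 6.38 in WT. The differences of Mki67 and Cdk1, -0.77 and -0.83, lay between that of Tubg1 and those of the alpha and beta members, while that of Mcm4, -1.76, was exceeded by Tubb6 alone among the members. Over the list they ran from -2.42 to -0.40, a range that holds all 10 members. The part of proliferation in the tubulin levels was not tested.

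**Figure D4:**
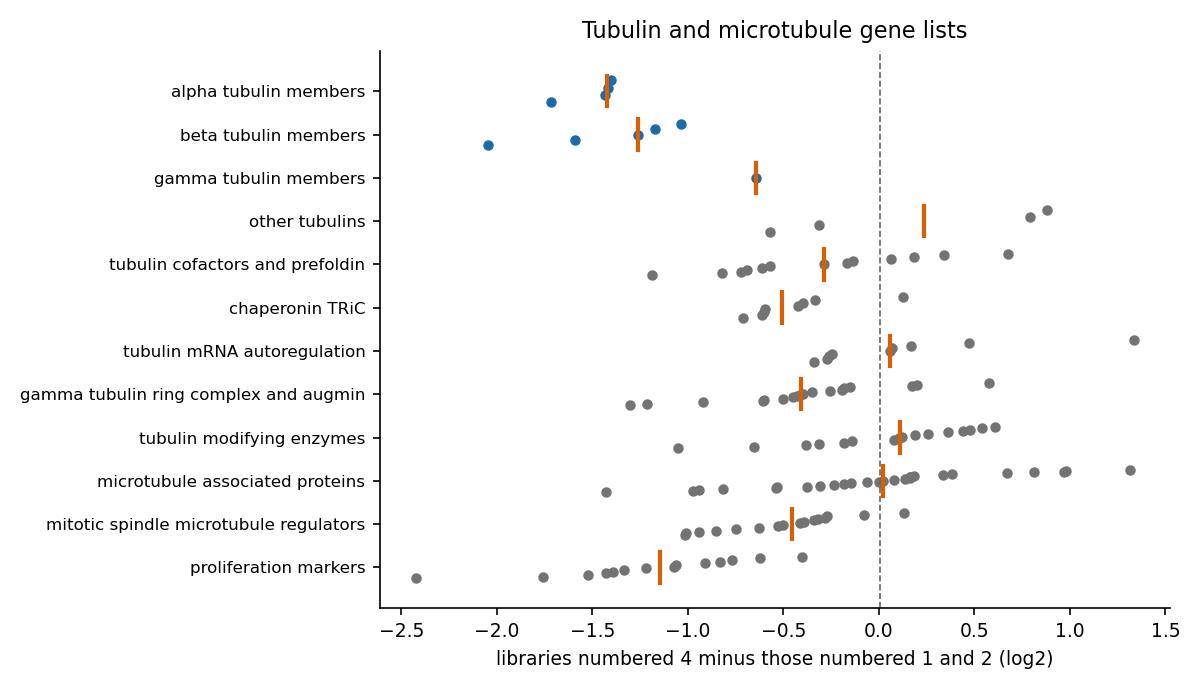
Difference of the libraries numbered 4 from those numbered 1 and 2 in log2 units (x axis) for each gene of the tubulin and microtubule lists (y axis), with 1 point per gene, members in blue, an orange bar at each list's median and a dashed line at the median of all genes tested. The alpha and beta members (medians -1.43 and -1.26) and the proliferation markers (median -1.15) lie farthest to the left.

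The genes with patterns most like the 2 leading isotypes were sought among all non-members tested, by the root mean square distance of log2 CPM, centred on each gene's mean, over the 6 libraries. For Tubb5 the 5 nearest were Phb (0.0206), Cse1l (0.0229), Aunip (0.0294), Blm (0.0346) and Mcm2 (0.0351). The nearest member was Tuba4a, at 0.0823. For Tuba1b they were Ercc6l (0.0604), Mrpl18 (0.0854), Dhx9 (0.0915), Rpa2 (0.0917) and Orc1 (0.0934), and the nearest member was Tubb4b, at 0.0904. The differences of the libraries numbered 4 ran from -1.29 to -1.22 for the 5 neighbours of Tubb5, around its own -1.26. The neighbours were picked on these same 6 libraries, so this closeness follows from the choice and is no separate result.

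The upstream sequences of Tubb5 and Tubb4b are shown because these are the 2 most abundant members and both are lower in the libraries numbered 4. They are RefSeq promoter sequences on GRCm38.p6, up to 250 bases before the annotated start, printed 5′ to 3′ on the minus strand, with each CCAAT match in capitals. Tubb5 lies at chr17:35838307-35838551 and Tubb4b at chr2:25224703-25224952:
Tubb5: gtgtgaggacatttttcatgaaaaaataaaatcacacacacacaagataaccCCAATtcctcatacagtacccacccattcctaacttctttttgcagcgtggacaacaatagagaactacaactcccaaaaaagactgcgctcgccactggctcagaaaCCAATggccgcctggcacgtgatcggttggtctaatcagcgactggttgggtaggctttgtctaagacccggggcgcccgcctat
Tubb4b: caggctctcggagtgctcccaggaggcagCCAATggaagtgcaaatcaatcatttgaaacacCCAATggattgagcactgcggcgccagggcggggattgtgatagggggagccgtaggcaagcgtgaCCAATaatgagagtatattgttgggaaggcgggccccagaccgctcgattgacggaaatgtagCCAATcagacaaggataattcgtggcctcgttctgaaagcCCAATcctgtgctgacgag

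Promoter entries were matched for 7 of the 10 members, and not for Tubb2b, Tubb6 or Tubg1. The counts below therefore leave out the members with the largest (Tubb6) and smallest (Tubg1) difference in the libraries numbered 4. On either strand of the 250 bases, CCAAT occurred in 4 of 7 members, against 33.8% of 32851 promoters and 35.8% of 11655 promoters of genes in the table. Tubb4b had 5 matches, Tubb5 2, and Tuba1a and Tuba1c 1 each. GGGCGG, the GC box, occurred in 5 of 7, against 59.0% of the promoters of genes in the table. TATAAA occurred in Tubb2a alone, 29 bases before the start, against 6.07%. TTTGAA, the cell cycle genes homology region, occurred in Tubb4b alone, against 10.5%, and TTTNNCGC, an E2F-like motif, in 0 of 7, against 7.17%. The window is set by the RefSeq start, and in some genes it runs into the GENCODE gene: by 202 of 250 bases in Tuba1a, by 175 in Tuba1b and wholly in Tuba4a. The CCAAT match of Tuba1a and the GC boxes of Tuba1a and Tuba4a therefore lie inside the annotated gene, as does 1 of the 2 GC boxes of Tuba1b. A match is a description of letters and not a binding site.

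In the comparison of knockout with wild type, no tubulin isotype passed the test, and the within-pair differences were small beside the difference between library numbers. The targeted gene, Myo1e, had log2 CPM of 6.87, 6.81 and 6.81 in KO 1, 2 and 4, and 7.09, 7.02 and 6.91 in WT. It was lower in KO in all 3 pairs, by -0.18 (SE 0.09) on average, so its transcript was still present in the pools labelled KO and its level checks the labels only weakly. Which part of the gene was altered is not stated in the sources used here.

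Over all 11269 genes, 0% passed at a Benjamini-Hochberg adjusted p of 0.05 by limma (0 genes, with 23 at an unadjusted p under 0.05). With the column number as a replicate block, 0.00887% passed (1 gene, Txnip, no member and chosen after its values were seen), and 1117 had an unadjusted p under 0.05. A voom fit to whole reads called 0 genes, or 1 with the block. Over 21 settings the lowest adjusted p of any member was 0.325. The omission of 1 library, which leaves number 4 unequal between the genotypes, turned the sign of the difference for each of the 10 members in at least 1 case.

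Tuba1a and Tuba1b had the largest differences among the members. Mean log2 CPM of Tuba1a was 7.17 ± 0.83 in KO and 7.33 ± 0.83 in WT (SD, n = 3), a difference of -0.16 (SE 0.55; limma adjusted p = 1.00). Its pair differences were -0.13, -0.20 and -0.16 for numbers 1, 2 and 4. Tuba1b had 7.89 ± 0.99 in KO and 8.03 ± 0.99 in WT, a difference of -0.14 (SE 0.66), with pair differences of -0.10, -0.17 and -0.14. These genes were lower in KO in each pair, but with the replicate block the SE was 0.05 for both and limma's adjusted p was 0.332 for Tuba1a and 0.377 for Tuba1b. They share most of their sequence and are not independent measurements.

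Tubb5 was the third member lower in KO in each pair, by -0.08, -0.02 and -0.05. Its mean was 11.01 ± 0.73 in KO and 11.06 ± 0.73 in WT (SD, n = 3; adjusted p = 0.808 by limma with the block). Members lower in all 3 pairs thus numbered 3 of 10, against 17% of all genes tested, and members higher in all 3 pairs 0 of 10, against 15.6%. A median of -0.05 over the members stood beside -0.01 over all genes.

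For the other members the pair differences changed sign between library numbers. In the pair numbered 4, Tubb4b differed by -0.20 and Tuba1c by -0.14, while Tubb2a differed by 0.16, Tubg1 by 0.11 and Tubb2b by 0.09. In the pair numbered 1, Tubb2b and Tubb2a differed by -0.26 and -0.22 and Tubb4b by 0.07. Tubb6, which differed most between library numbers, differed least between genotypes, with 0.03, -0.05 and 0.00 in the 3 pairs.

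**Figure D5:**
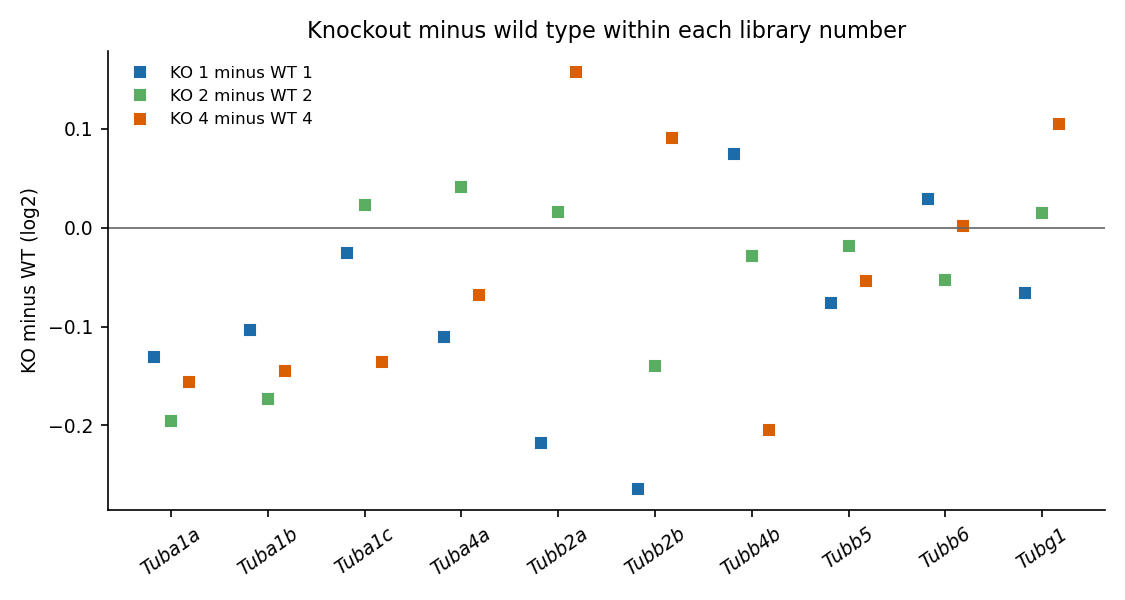
KO minus WT in log2 CPM (y axis) for each tubulin isotype gene (x axis) within the column numbers 1, 2 and 4, with 1 square per pair of libraries and a line at 0. Only Tuba1a, Tuba1b and Tubb5 have all 3 squares on one side of 0, and all squares lie between -0.26 and 0.16.

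Summed per length, alpha tubulin in KO was 0.938, 0.928 and 0.911 of that in WT for the pairs numbered 1, 2 and 4. Beta tubulin in KO was 0.975, 0.983 and 0.953 of that in WT. The beta to alpha ratio was 2.80 ± 0.14 in KO and 2.68 ± 0.14 in WT (SD, n = 3), higher in KO in 3 of 3 pairs by factors of 1.04, 1.06 and 1.05. These sums and their ratio are descriptions and were not tested. Isotype shares differed by at most 1.98 percentage points within a pair, for Tuba1c in the pair numbered 2.

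The other tubulins and the pathway lists held no gene past the threshold in KO against WT, with or without the replicate block. Among the other tubulins the differences were 0.16 (SE 0.33) for Tubg2, -0.18 (SE 0.42) for Tubb4a and 0.10 (SE 0.24) for Tube1. Tubg2 and Tube1 were higher in KO in all 3 pairs, as were 15.6% of all genes tested. Both rest on few reads, and Tube1 had 136 reads in KO 2 and 141 in WT 2 before scaling. Of 13 cofactor and prefoldin genes 12 had a value below 0 (median -0.09), and of 8 TRiC subunits all 8 (median -0.05). Of 16 spindle regulators 15 had a value below 0 (median -0.05), whereas of 27 microtubule associated proteins 23 had a value above 0 (median 0.06). Over all 11269 genes tested, 5958 had a value below 0 and 5311 above (median -0.01). These are signs of means, and fewer genes kept their direction in all 3 pairs. Lower in each pair were 3 of the 13 cofactor genes, 2 of the 8 TRiC subunits and 7 of the 16 spindle regulators, against 17% of all genes tested. In these lists 0 genes were higher in each pair. Of the microtubule associated proteins, 7 were higher in each pair and 1 was lower. The TRiC medians were 0.01, -0.06 and -0.10 in the pairs numbered 1, 2 and 4.

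The cofactor gene with the smallest p was Arl2, a small GTPase of the tubulin assembly complex, at -0.22 and lower in all 3 pairs. Its SE was 0.11 without the block and 0.06 with it, where limma's adjusted p was 0.314. Haus1, an augmin subunit, had -0.24, lower in all 3 pairs. Its SE was 0.13 without the block and 0.08 with it, where limma's adjusted p was 0.3895. Map1b, a microtubule stabilising protein, had 0.17, higher in all 3 pairs. Its SE was 0.11 without the block and 0.05 with it, where limma's adjusted p was 0.281. The proliferation markers, which separated the library numbers, had a median KO minus WT difference of -0.00.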

How the data were processed

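The analysis used 6 libraries, 3 KO and 3 WT. The deposited table holds log2 CPM values for 11452 gene symbols. Per the submitters' processing notes, the authors' tools included STAR (2.7.3a) and Trimmomatic (0.39), together with edgeR and featureCounts from Subread (1.6.4), and the build was GRCm38. The annotation, strand setting, handling of multiple matches and normalization are not stated in the sources used here. Per the labels' protocols, libraries were stranded mRNA preparations. Column numbers 1 and 2 were read as pools 1 and 2, and columns numbered 4 were tied only to a genotype.

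Every linear value was a whole number of reads within 0.01 after a prior of 1 read was removed. Counting error alone is small at this depth, except for genes with few reads such as Tubb4a, Tubg2, Tubd1 and Tube1. KO was compared with WT by limma 3.58.1 in R 4.3.3 (two-sided, trended variance) on 11269 genes with log2 CPM of at least 0 in 3 of 6 libraries. Adjusted p-values run over all of these. RPKM and shares used exon lengths from GENCODE mouse release 21, matched for 11352 symbols (99.1%). Only the fit of KO against WT without the block was tested on simulated data, which held no difference between library numbers.

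Members, lists and tests were chosen with earlier results of these data known. The rule named all members and, from each list, genes past the threshold and up to 3 with the smallest p, of which some are printed. Same-numbered KO and WT libraries deviated together from their genotype means (r = 0.744, 0.784 and 0.921 across genes for 1, 2 and 4), so the numbers were taken as pairs, although no label states a pairing. Each genotype mean includes the library numbered 4, which raises the values for numbers 1 and 2, matched or crossed. Crossing numbers 1 and 2 gave values nearly as high (0.687 for KO 1 against WT 2, 0.617 for KO 2 against WT 1). Numbers 1 and 2 are therefore less clearly paired than 4. The alternatives covered filter, pseudocount, scaling, variance model, block, voom, transcript length and omission of each library. Libraries 1 and 2 only was chosen after seeing the data.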

Additional observations from a re-analysis of the deposited data

How the results depend on the processing

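With the column numbers as a replicate block, 1 gene passed in KO against WT, and likewise 1 with voom and the block and 1 with the length correction and the block, against 0 without it. No member passed in any setting, and the block changed no member's call. All 10 members stayed below the other libraries in those numbered 4 under each scaling, pseudocount and omission tried. Their median difference was -1.30 after quantile normalization, where Tubb5 had -0.99. Shares, and the order of Tuba1b and Tubb6, depend on the length used. With no length, Tuba1a held 19.7%, Tuba1b 32.2%, Tuba4a 23.5%, Tubb2a 1.23%, Tubb2b 0.413%, Tubb4b 13.8% and Tubb5 74.8%. With the longest transcript, Tuba1a held 21.8%, Tuba4a 16.6%, Tubb2a 1.77% and Tubb2b 0.438%. KO minus WT differences near 0 changed sign. The length correction, with and without the block, gave 0.0054 for Tuba1c, 0.0430 for Tubb2a, 0.0427 for Tubb6 and 0.0075 for Tubd1. Voom gave 0.00063 for Tubb6, quantile normalization 0.0103 for Tubd1, and libraries 1 and 2 only 0.0227 for Tubb4b and -0.026 for Tubg1. The cause was not tested. Leaving out 1 library unbalances number 4 between genotypes, which moves these differences by construction. They then ran from -0.64 to 0.32 for Tuba1a, -0.71 to 0.43 for Tuba1b, -0.50 to 0.45 for Tuba1c, -0.51 to 0.43 for Tuba4a, -0.45 to 0.33 for Tubb2a, -0.50 to 0.19 for Tubb2b, -0.55 to 0.52 for Tubb4b, -0.47 to 0.37 for Tubb5, -0.69 to 0.67 for Tubb6 and -0.22 to 0.21 for Tubg1. For Tubb4a they ran from -0.56 to 0.10, for Tubd1 from -0.24 to 0.14, for Tube1 from -0.0504 to 0.28 and for Tubg2 from -0.10 to 0.42. Among the genes named, depth limits Tubb4a most. Tubg2 (71 to 161 reads per library), Tubd1 (80 to 127) and Tube1 (98 to 141) also rest on few reads.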
